A study of Homo sapiens with 2 samples.

Results

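Chemokine transcripts were read in MDA-MB-231, an established line from a human breast carcinoma without hormone receptors, on 1 array of parental control cells and 1 array of a clone in which UGT8 was stably knocked down. UGT8 encodes the enzyme that makes galactosylceramide. The chemokines are CXCL1, CXCL2, CXCL3, CXCL8, CXCL16, CCL2, CCL5, CCL20, CCL28 and CX3CL1, 10 of the 18244 genes on the array that had a probe set of their own. They were read through every probe set whose only annotated gene symbol was one of these names, 20 of the 49495 probe sets in the table. Both cultures grew in medium with 5.6 mmol/L glucose and were harvested 48 h after passage. Per the series' design text, the control was the parental line and the knockdown a clone, so effects of cloning and of UGT8 knockdown cannot be told apart. The labels used here do not name the knockdown reagent or a vector control.

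Chemokines are small secreted proteins that guide the movement of leukocytes through G protein-coupled receptors. They are classed by the spacing of their first cysteines into CXC, CC and CX3C types. CXCL1, CXCL2, CXCL3 and CXCL8 carry the ELR amino acid motif, act on CXCR2 (CXCL8 also on CXCR1) and recruit neutrophils, and their transcription is a textbook output of NF-kappaB. Carcinoma lines of basal type are known to secrete several of them. CXCL16 and CX3CL1 are made as membrane-anchored proteins that ADAM proteases shed.

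The promoters of the ELR chemokines and of CCL20 are shown first, because the readings of these genes were the lower ones on the knockdown array. Each holds a form of the motif of the transcription factor that these genes share as a known regulator. Of the 10 chemokines, 6 were found in RefSeq's promoter windows (GRCh38.p14, 250 bases before to 50 after the start). No window was found for CXCL16, CCL2, CCL5 or CX3CL1, none of which was lower in its brightest probe set as deposited. CCL28 was thus the only chemokine not lower whose promoter could be searched. The 150 bases before the transcription start are given 5′ to 3′ on the strand of the gene. Capitals mark matches, on either strand, to the kappaB motif (GGG, then 2 bases of any kind, then TTTCC), its shorter form GGAATTTCC, which overlaps it, the AP-1 motif TGANTCA and the TATA box TATAAA. The shorter form was added after the CXCL8 sequence had been seen.
CXCL1, chr4:73869243-73869392, plus strand: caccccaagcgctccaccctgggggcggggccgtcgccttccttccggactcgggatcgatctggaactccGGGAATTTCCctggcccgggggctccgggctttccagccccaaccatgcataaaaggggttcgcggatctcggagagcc
CXCL2, chr4:74099196-74099345, minus strand: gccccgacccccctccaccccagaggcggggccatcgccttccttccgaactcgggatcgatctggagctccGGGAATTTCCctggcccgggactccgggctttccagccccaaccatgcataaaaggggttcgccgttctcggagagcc
CXCL3, chr4:74038690-74038839, minus strand: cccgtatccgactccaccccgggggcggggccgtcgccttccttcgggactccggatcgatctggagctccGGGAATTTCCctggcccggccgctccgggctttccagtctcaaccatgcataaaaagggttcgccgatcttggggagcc
CXCL8, chr4:73740419-73740568, plus strand: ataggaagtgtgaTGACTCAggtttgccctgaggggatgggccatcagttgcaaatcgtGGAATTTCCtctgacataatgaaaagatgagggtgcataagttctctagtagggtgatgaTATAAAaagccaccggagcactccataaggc
CCL20, chr2:227813692-227813841, plus strand: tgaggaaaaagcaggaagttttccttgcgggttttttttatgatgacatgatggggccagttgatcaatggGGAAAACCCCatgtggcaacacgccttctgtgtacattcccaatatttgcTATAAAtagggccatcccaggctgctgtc

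The kappaB motif began 79 bases before the start in CXCL1, CXCL3 and CCL20 and 78 bases before it in CXCL2. The match in CCL20 lies on the opposite strand. CXCL8 held the shorter form, 91 bases before the start, and an AP-1 match 137 bases before it. The stretches of CXCL1, CXCL2 and CXCL3 were identical at 86.1% to 88.7% of aligned positions, whereas each pair that included CXCL8 or CCL20 was identical at 42.5% to 48.5%. Neither window listed for CCL28 held a match to any of the 4 motifs. Of all 35116 promoter windows of this length, 1.91% held the kappaB motif, 0.461% held GGAATTTCC, 7.71% held TGANTCA and 11.5% held TATAAA. A match is a run of letters and no evidence of binding.

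Values are log2 RMA values, and each difference is the knockdown value minus the control value. With 1 array per group there is no replicate error and no test, and every difference describes these 2 arrays. In RNA from a whole culture, fewer cells that express a gene and less RNA per cell cannot be told apart. Where a gene had several probe sets, the one brightest on average stands for it, and a floor on that average was placed at the median of all probe sets that are not controls (6.64). The difference between probe sets of 1 gene had a median SD of 0.08 over 6067 genes, which is disagreement within 1 pair of arrays and no replicate error. The targeted gene was lower in all 3 of its probe sets, with the brightest going from 8.95 in the control to 6.61 in the knockdown. The hybridisation spike-in controls had a median difference of 0.51, so that centring on them lowers every difference by this amount. The 3′ minus 5′ difference of the ACTB control probe sets was 0.49 for the control and 0.90 for the knockdown, and that of GAPDH was 0.18 and 0.19. The part of these shifts in the chemokine differences was not tested.

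Of the 10 chemokines, 4 were at least 1.5-fold lower on the knockdown array (CCL20, CXCL2, CXCL8 and CXCL3), 1 was at least 1.5-fold higher (CCL28), and 5 lay within 1.5-fold. Over all 18244 genes, 4.39% were at least 1.5-fold lower and 3.87% at least 1.5-fold higher. The median difference of the 10 was -0.19, beside 0.02 for all genes. Past the floor lay 6 of the 10, of which 3 were lower by at least 1.5-fold and none was higher, beside 6.74% lower and 4.96% higher of the 10439 genes past the floor. CCL20 was the single chemokine at least 2-fold lower, a fold that 1.04% of all genes reached. Centred on the hybridisation controls, 5 of the 10 were lower by at least 1.5-fold and none was higher, but on that scale 37.1% of genes past the floor were lower and 0.479% higher.

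**Figure D1:**
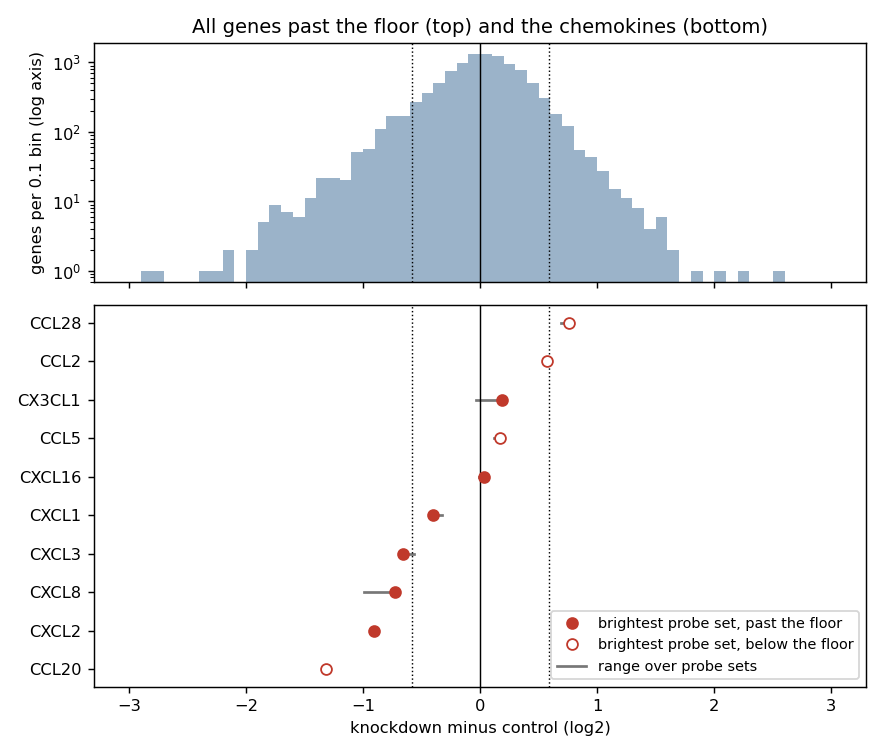
The upper panel is a histogram of knockdown minus control (log2) for the 10439 genes past the floor, with a log count axis, and the lower panel gives the same difference for each chemokine. Filled points are past the floor and open points below it, grey lines span the probe sets of a gene, and dotted lines mark 1.5-fold. CCL20, CXCL2, CXCL8 and CXCL3 lie left of the lower 1.5-fold line on the deposited scale, and CCL28 lies right of the upper one there but within 1.5-fold (0.25) on the scale of the hybridisation controls.

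The ELR chemokines were lower on the knockdown array in all 9 of their probe sets, by 0.33 to 0.99. Some of these probe sets share a source sequence, so the 9 are not independent readings. Every centring tried lowers the differences, so none could turn this direction. CXCL8, the main neutrophil attractant of human tissues, read 12.90 in control cells and 12.17 in the knockdown in its brightest probe set. The others read 12.33 and 11.34, and 12.13 and 11.16. Every CXCL8 probe set was thus lower in the knockdown, and the brightest of them gave the smallest difference. Its name marks possible cross-hybridisation, but so does that of the dimmest, which differed by -0.97. The fold was 1.66 in the brightest probe set and 1.99 and 1.95 in the others. The mean difference was -0.90 ± 0.14 (SD, n = 3 probe sets, which are no replicates).

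CXCL2, a neutrophil chemokine of the GRO group, read 9.58 (control) and 8.67 (knockdown) in one probe set. In the other it read 9.15 and 8.24. The readings differ in level, yet both gave the same difference of -0.91, or 1.88-fold, so they count as 1 reading. Of 11825 genes with several probe sets, 754 had at least 2 whose differences agreed within 0.0001. The difference of CXCL2 was undercut by 209 genes past the floor.

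CXCL3, another GRO chemokine, read 7.98 and 7.32 in its brighter probe set, on the control and knockdown arrays in turn. The dimmer one read 7.88 and 7.32. Both were lower in the knockdown, by 1.58-fold and 1.48-fold, which lie on either side of the 1.5-fold line.

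CXCL1, the founding GRO chemokine, read 12.45 in the control and 12.05 in the knockdown. Its other probe set read 11.65 and 11.33. Both were lower in the knockdown but within 1.5-fold, at -0.40 and -0.33. A further probe set, annotated to CXCL1 and CXCL2 together and so outside the 20, read 11.46 and 11.15. Its difference of -0.31 was nearer to those of CXCL1 than to that of CXCL2. These genes are near-identical copies in part, so how far their probe sets read one another is uncertain.

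**Figure D2:**
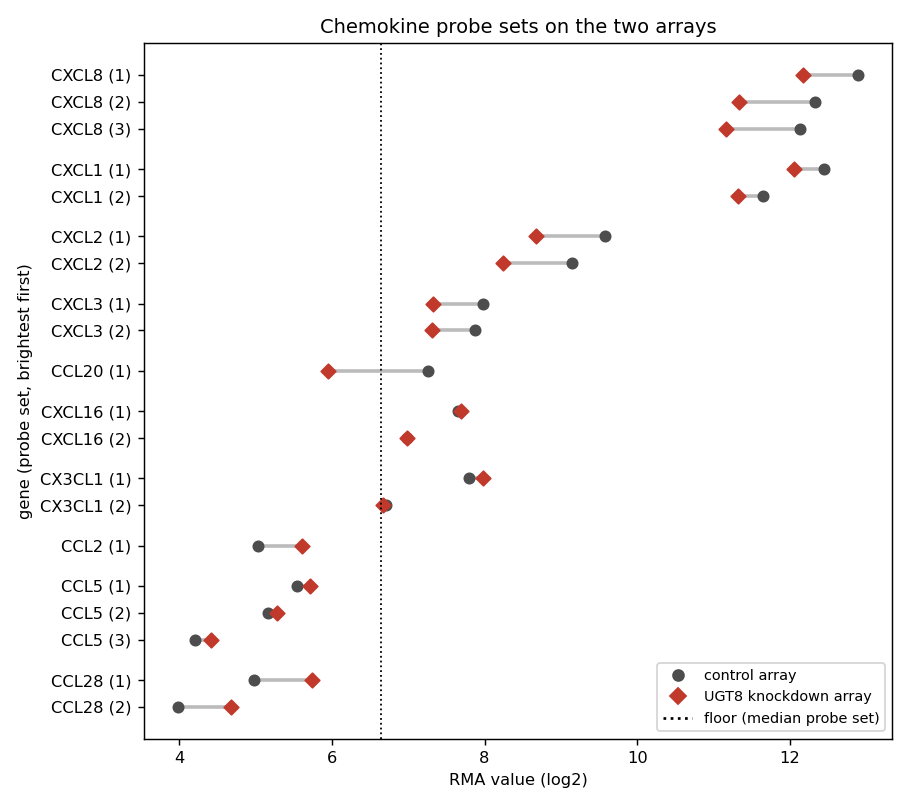
Each row is 1 probe set of a chemokine, numbered from the brightest, with its RMA value (log2) on the control array (grey circles) and the UGT8 knockdown array (red diamonds). The dotted line is the floor at 6.64. All 9 probe sets of CXCL8, CXCL1, CXCL2 and CXCL3, which are not independent readings, lie lower on the knockdown array. The centrings tried could not turn that direction, since each lowers the differences. The readings of CCL2, CCL5 and CCL28 all lie left of the floor.

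The ELR chemokine genes lie in 1 cluster on chromosome 4, with the genes of other CXC chemokines between them. In RefSeq's order, the chemokine genes there run CXCL8, CXCL6, PF4V1, CXCL1, PF4, PPBP, CXCL5, CXCL3 and CXCL2. The neighbours that are not among the 10 all read below the floor, from 3.34 for CXCL6 to 5.84 for PF4V1 on the control array. CXCL6 and CXCL5, which also carry the ELR motif, read the same on both arrays, at 3.34 and 3.69. A difference of exactly 0 was found for 1744 probe sets of the table. Farther along the chromosome, the interferon-induced CXCL10 read 4.95 in control cells and 4.41 in the knockdown, and CXCL9 and CXCL11 likewise lay below the floor on both arrays. The genes of the cluster that read above the floor were therefore the ones among the 10, and these were lower on the knockdown array.

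**Figure D3:**
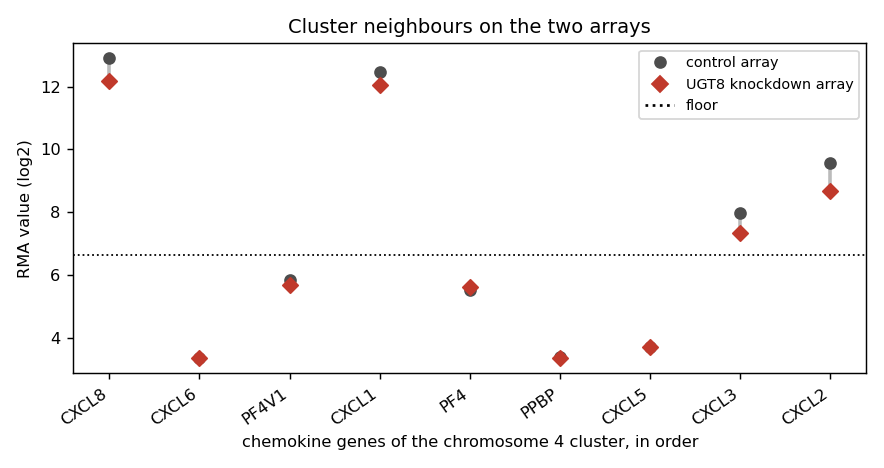
RMA value (log2) of each chemokine gene of the chromosome 4 cluster, in genomic order and not to distance, on the control array (grey circles) and the UGT8 knockdown array (red diamonds). CXCL8, CXCL1, CXCL3 and CXCL2 lie above the dotted floor and lower in the knockdown, while the 5 neighbours lie below the floor. The centrings tried could not turn that direction, since each lowers the differences.

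CCL20, the ligand of CCR6 that attracts dendritic cells and lymphocytes to epithelia, had the lowest difference of the 10. Its single probe set read 7.26 (control) and 5.94 (knockdown). The control reading lay above the floor and the knockdown reading below it. The difference was -1.31, or 2.49-fold, which leaves 40.2% of the control signal. The 75th percentile of 23 probe sets made to read background was 5.96 for the control and 5.90 for the knockdown, so the knockdown reading of CCL20 was close to that level, and how far it lay above background is uncertain. Of genes below the floor on mean level, as CCL20 just was at 6.60, 0.372% were at least 2-fold lower. Among genes past the floor, 66, or 0.632%, had a lower difference than CCL20.

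The other CC chemokines read low on both arrays. CCL28, a chemokine of mucosal epithelia, read 4.98 in the control and 5.74 in the knockdown. Its dimmer probe set read 3.98 and 4.68. Both were higher in the knockdown, by 0.76 and 0.69, or 1.69-fold and 1.62-fold. CCL2, the main attractant of monocytes, read 5.03 and 5.60, a difference of 0.57 that lay just within 1.5-fold. CCL5, an attractant of T cells and monocytes, read 5.54 and 5.72 in its brightest probe set. Its 3 probe sets were higher in the knockdown by 0.12 to 0.21 on the deposited scale, a direction that turned on the scale of the hybridisation controls (-0.34). Every reading of CCL28, CCL2 and CCL5 lay below that 75th percentile of the background probe sets. Among genes below the floor, 2.41% were at least 1.5-fold higher and 1.23% at least 1.5-fold lower. After the background median of each array had been subtracted on the linear scale, CCL28 differed by 1.06 and CCL2 by 0.80, so the size of these differences depends on the background taken.

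The membrane-anchored chemokines were nearly level between the arrays. CXCL16, the ligand of CXCR6, read 7.66 in control cells and 7.69 in the knockdown, and 6.99 and 6.98 in its dimmer probe set. The differences were 0.03 and -0.01, smaller than the median SD between probe sets of 1 gene. CX3CL1, or fractalkine, the ligand of CX3CR1, read 7.80 and 7.98, and 6.70 and 6.67 in its dimmer probe set. Its differences were 0.18 and -0.04, opposite in sign. Centred on the hybridisation controls, CXCL16 was at -0.48 and CX3CL1 at -0.33, so that neither has a direction that holds across scalings.

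In order of their differences, the 10 ran CCL20, CXCL2, CXCL8, CXCL3, CXCL1, CXCL16, CCL5, CX3CL1, CCL2 and CCL28, from lowest to highest. CXCL8 and CXCL3, and likewise CCL5 and CX3CL1, were separated by less than the median SD between probe sets of 1 gene. The order of CXCL2 and CXCL8 turned when probe sets marked for cross-hybridisation were left out, since CXCL8 then differed by -0.99 and CXCL2 by -0.91.

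**Figure D4:**
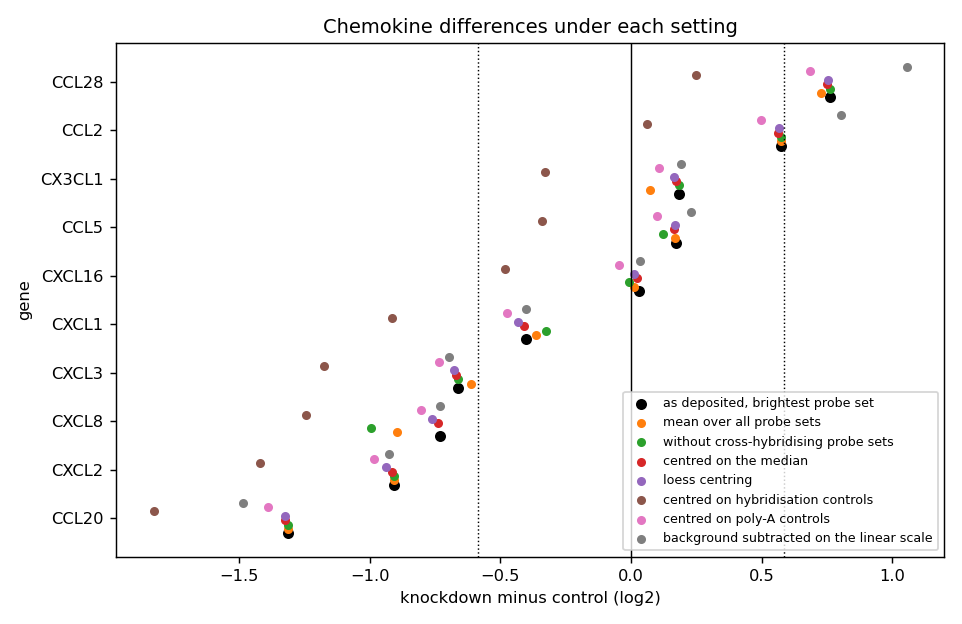
Knockdown minus control (log2) of each chemokine on the deposited scale (black) and under 7 other settings (colours). CCL20, CXCL2, CXCL8, CXCL3 and CXCL1 stay left of 0 throughout and CCL2 and CCL28 stay right of it. CXCL16, CCL5 and CX3CL1 cross to the left when centred on the hybridisation controls (brown). Each centring lowers the differences, so a gene left of 0 could not cross under it.

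Chemokines outside the 10 were mostly below the floor. Of 34 listed, 30 had a probe set of their own and 2 of these lay past the floor, neither of them at least 1.5-fold apart. CCL26, an eosinophil attractant, read 8.93 (control) and 8.63 (knockdown). CCL22, a ligand of CCR4, read 7.93 and 7.95. Of 21 receptor genes read, 5 lay past the floor. CXCR4, the receptor of CXCL12, read 8.24 and 8.16, while the ELR receptors CXCR1 (5.50 and 5.46) and CXCR2 (4.64 on both) lay below the floor. CCRL2, an atypical receptor that binds chemerin, was 1.68-fold higher, at 7.24 in the control and 7.99 in the knockdown, and was the single receptor past 1.5-fold. No receptor past the floor was at least 1.5-fold lower, beside 6.74% lower and 4.96% higher of all genes past the floor. On the scale of the hybridisation controls, where 37.1% of those genes were lower, 1 receptor was lower, CXCR4 (-0.59), and none higher. That call rests on the brightest CXCR4 probe set, since its 4 probe sets ranged from -0.08 to 0.18 on the deposited scale.

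Genes of chemokine shedding and cleavage were lower in part. Of the 6 past the floor, 5 were below 0 and 1 was at least 1.5-fold lower, with a median of -0.41. For all genes past the floor the median was 0.03, and 6.74% were at least 1.5-fold lower. ADAM10, which sheds CXCL16 and CX3CL1 in resting cells, read 9.54 in control cells and 8.75 in the knockdown. It was 1.73-fold lower, and its 4 probe sets differed by -0.79 to -0.59. ADAM17, the protease of stimulated shedding, read 10.52 and 10.19. These readings are of transcripts and say nothing of how much chemokine was shed. Centred on the hybridisation controls, 5 of the 6 were at least 1.5-fold lower, beside 37.1% of all genes past the floor.

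Transcripts of the NF-kappaB and AP-1 machinery were listed with those of the C/EBP factors CEBPB and CEBPD. They do not measure the activity of these factors, which was not tested. All 26 genes read of this list lay past the floor, with a median of -0.10, and 1 was at least 1.5-fold lower and 1 higher. The chemokine median was -0.19 over all 10, -0.53 over the 6 past the floor and -0.70 over the ELR chemokines. The shares of all genes past the floor were 6.74% lower and 4.96% higher. The lower one was CEBPD, so no NF-kappaB or AP-1 gene was 1.5-fold lower in its brightest probe set. CEBPD, of the inflammatory response, was 2.57-fold lower, at 11.28 (control) and 9.91 (knockdown), and all 5 of its probe sets were lower. FOSL1, an AP-1 subunit, was 1.64-fold higher, at 10.10 and 10.81. RELA, the main activating subunit, read 9.76 and 9.83, and its 3 probe sets ranged from -0.27 to 0.07 with a mean of -0.15. NFKB1 read 9.31 and 8.95. The feedback inhibitor NFKBIA, itself an NF-kappaB target, read 10.92 and 10.35, just within 1.5-fold in its brightest probe set, while the mean over its 3 probe sets was -0.61, just past it. Centred on the hybridisation controls, 13 of the 26 were lower by at least 1.5-fold and none was higher. On that scale 37.1% of all genes past the floor were lower.

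Among other cytokines and NF-kappaB targets, 7 of the 21 past the floor were at least 1.5-fold lower and 1 was higher, with a median of -0.37. Of all genes past the floor, 6.74% were lower and 4.96% higher by this fold. The list was chosen with earlier results of these data known, so its count is no independent finding. The higher one in the list was complement C3, at 9.63 and 10.24, or 1.52-fold. On the scale of the hybridisation controls 13 were lower and none higher, beside 37.1% lower of all genes past the floor. TNFSF10, the death ligand TRAIL, was 3.45-fold lower, at 10.36 in the control and 8.57 in the knockdown. The adhesion molecule VCAM1, the prostaglandin synthase PTGS2 and complement factor CFB were the others with the largest differences, at -2.18, -1.85 and -2.22. The 4 probe sets of CFB ranged from -2.52 to -0.39. The cytokines of the list differed among themselves. CSF1 differed by -0.93 and IL6 by -0.81, and both were among the 7 that were lower. IL1B, a strong inducer of CXCL8, read 12.53 and 12.66, a difference of 0.13, and IL1A differed by 0.01. Centring on the hybridisation controls puts IL1B at -0.38 and IL1A at -0.51.

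Receptors of the cytokines that induce chemokines were listed together with TLR genes and MYD88, which encodes an adaptor and no receptor. Of this list 13 lay past the floor, MYD88 among them, with a median of -0.31. By at least 1.5-fold, 3 of the 13 were lower and none was higher, beside 6.74% lower of all genes past the floor. IL1RAP, the shared chain of IL-1 receptors, was 2.52-fold lower in its brightest probe set, at 9.57 in control cells and 8.23 in the knockdown. Its 4 probe sets ranged from -1.33 to 0.14, so this fold rests on the probe set chosen, and the mean over them was -0.44. OSMR, the oncostatin M receptor, was 2.36-fold lower, at 11.00 and 9.76, with all 5 probe sets lower. IL1R1, the signalling IL-1 receptor, read 9.94 and 9.01 in 1 probe set, a difference of -0.94, and differed by -0.09 in the other. TNFRSF1A, the main TNF receptor, read 10.13 and 9.67.

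Several chemokine messages, that of CXCL8 among them, carry AU-rich elements that govern their decay. The 16 genes of this machinery, all past the floor, had a median of -0.12. Beside 6.74% of all genes past the floor, 2 of the 16 were lower by at least 1.5-fold, and none was higher. The lower ones were TIA1, an AU-rich element binder and translational repressor, at 8.43 (control) and 7.69 (knockdown), and the exonuclease gene XRN1, at 8.68 and 7.98. The 6 probe sets of TIA1 ranged from -0.74 to -0.11 with a mean of -0.50, and those of XRN1 from -0.74 to 0.10 with a mean of -0.32, and both means lay within 1.5-fold. ZFP36, which encodes tristetraprolin and promotes decay of such messages, read 9.36 and 9.07. Centred on the hybridisation controls, 9 of the 16 were at least 1.5-fold lower, beside 37.1% of all genes past the floor.

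**Figure D5:**
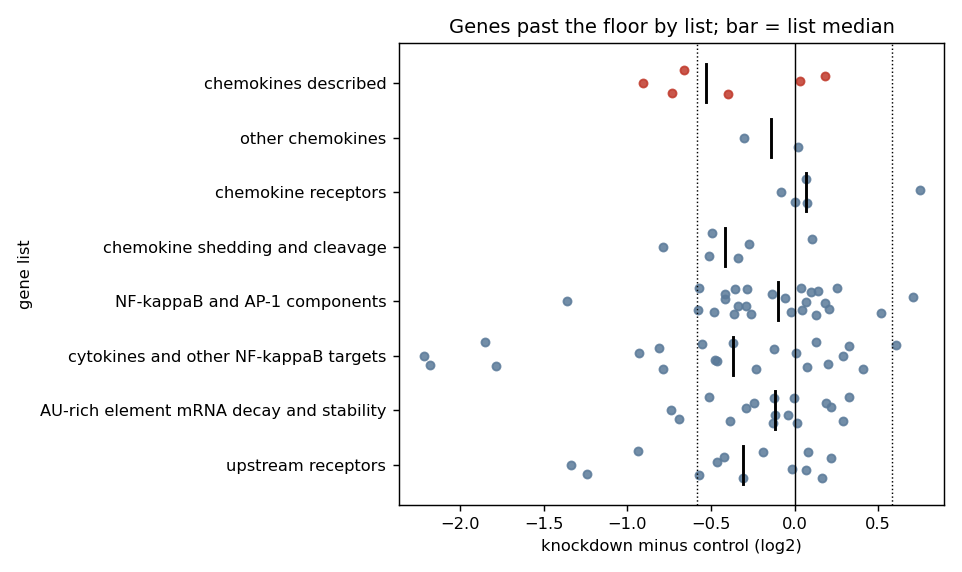
Each point is a gene past the floor, placed by knockdown minus control (log2, deposited scale) in its list, the black bar is the list's median, and dotted lines mark 1.5-fold. Of the 8 lists plotted, which leave out the marker lists of cell types, the medians run from -0.53 for the 6 chemokines described to 0.07 for 5 chemokine receptors. Without the floor these medians were -0.19 for 10 chemokines and -0.04 for 21 receptors. The lowest points are CFB and VCAM1 among the cytokines and other NF-kappaB targets. On the scale of the hybridisation controls each point moves left by 0.51.

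The kappaB motif was also set against the differences of all genes. Of 8688 genes past the floor with a promoter window, 6.40% were at least 1.5-fold lower, beside 7.60% of the 250 whose window held the longer kappaB motif. Without the chemokines the latter share was 6.88% of 247, near that of all genes. Of the 50 with the shorter form GGAATTTCC, 8 were at least 1.5-fold lower, among them CXCL2, CXCL3 and CXCL8. Without the chemokines these were 5 of 46, or 10.9%, namely PAN2 (-1.45), DUSP6 (-0.91), CRYBG1 (-0.76), ADGRL2 (-0.73) and RAP2C (-0.64), named after their values were seen. Counted in the same way, the share was 10.3% of 746 genes with TATAAA and 8.18% of 611 with TGANTCA. The share for the shorter kappaB form was thus near that for the TATA box. No single kappaB form was shared by all of the promoters shown. CXCL1, CXCL2 and CXCL3 held both forms, CXCL8 only the shorter, which was added after its sequence had been seen, and CCL20 only the longer. Most genes past the floor that held either form were not 1.5-fold lower. The part of the motif in the chemokine differences was not tested.

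Markers of the line were present, with VIM at 13.88 in the control and 13.89 in the knockdown and KRT18 at 11.90 and 11.98, and the hormone receptor genes ESR1 and PGR below the floor. Of 12 genes of this list, 10 lay past the floor, and 1 of these was past 1.5-fold, the epithelial adhesion molecule EPCAM, which was 1.54-fold higher at 8.34 and 8.97 (0.62, or 0.11 on the scale of the hybridisation controls). The median of the list was -0.07, and on that scale 5 of its genes were lower by at least 1.5-fold and none higher. Of all genes past the floor, 37.1% were lower on it. EGFR differed by -0.53, with its 8 probe sets from -0.71 to 0.05, KRT19 by -0.42, CDH1 by -0.35 and CD44 by -0.28. Leukocytes are a major source of CCL2 and CCL5, and their markers were mostly below the floor, with PTPRC at 3.56 and 3.40. Of 11 leukocyte markers read, the summed linear level was 638 for control cells and 571 for the knockdown, and the median difference was 0.07. Past the floor lay 2, and 1 of these, CD14, was at least 1.5-fold lower (-0.73). CD14 was also the brightest of the 11 in control cells and so weighs most in that sum. Of 10 fibroblast markers the sum was 1625 and 1119, and the median difference was -0.33. Among the 4 past the floor, COL3A1 (-1.53) and LUM (-1.34) were lower by at least 1.5-fold, and COL1A1 lay below the floor. Of 8 endothelial markers the sum was 976 and 773, and the median difference was 0.02. Among the 3 past the floor, PECAM1, the brightest of the 8 in control cells, was lower (-1.09), while ESAM differed by 0.08. CDH5 lay below the floor. On the deposited scale 6.74% of all genes past the floor were at least 1.5-fold lower. The part of such markers in the chemokine differences was not tested.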

How the data were processed

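One labelled sample of total RNA per group was hybridised to an Affymetrix expression array, per the labels. The authors deposited log2 values that the submitters' processing notes attribute to RMA, which corrects background, normalizes between arrays and summarises probes. Normalization between arrays makes each difference relative to the bulk of transcripts. No software version or genome build is given in the sources used here. Probe sets were named through GEO's platform annotation, with symbols updated by gene ID to RefSeq's. Of 49495 probe sets, 102 were controls, 45278 had 1 symbol, 1333 had several and 2782 had none, and genes were read through those with 1 symbol. Differences, counts at 1.5-fold and medians were computed with pandas 2.3.3 and loess curves with statsmodels 0.14.6, and the counting was tested on simulated data. No test was run because each group holds 1 array, and the number of arrays limits the precision. All 10 chemokines were named, and of each of the other 11 gene lists up to 4 genes past the floor with the largest difference of at least 1.5-fold. Other genes were named for their known role or after their values were seen. The chemokines and lists were chosen with earlier results of these data known.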

Additional observations from a re-analysis of the deposited data

How the results depend on the processing

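The counts of chemokines lower and higher by at least 1.5-fold, and the median of -0.19 over the 10, stayed at 4 and 1 and between -0.26 and -0.17 with averaging of probe sets, without probe sets marked for cross-hybridisation, with median or loess centring (fraction 0.3), with poly-A centring or with a floor at the 25th percentile. Centring on the hybridisation controls gave 0 higher and a median of -0.70. Keeping the 6 past the floor gave 0 higher and a median of -0.53, and keeping the 3 past the 75th percentile gave 2 lower, 0 higher and a median of -0.73, in each case with fewer genes counted. Linear background subtraction gave 2 higher. At 2-fold, 1 was lower and 0 higher, and at 3-fold 0 were lower and 0 higher. CXCL1, CXCL2, CXCL3, CXCL8, CCL20, CCL2 and CCL28 kept their direction in all 7 settings tried on single genes, CCL5 and CX3CL1 in 6 and CXCL16 in 4. Each centring among these settings lowers the differences, so none could turn a gene that was already lower. Low signal limits CCL2, CCL5, CCL28 and the knockdown reading of CCL20. No paired analysis was possible because each group holds 1 array.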
